A study of Homo sapiens with 8 samples.

Results

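Accessibility was examined at 10 immediate early genes, chosen by name for their family, with earlier results of these data known and no measured value in the rule: FOS, FOSB, FOSL1, FOSL2, JUN, JUNB, JUND, ATF3, EGR1 and MYC. They are 10 of 19974 protein-coding genes on chromosomes 1 to 22 and X in the RefSeq gene table, and all 10 were found there. For each gene, every called ATAC-seq peak within the gene and 20 kb either side was taken from 8 peak lists. ATAC-seq uses the transposase Tn5 to insert sequencing adapters into accessible DNA, and a peak is a stretch where insertions pile up above background.

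Immediate early genes are transcribed within minutes of a growth or stress signal, from promoters that need no new protein synthesis. Proteins of the FOS family pair with those of the JUN family through leucine zippers to form AP-1, which binds regulatory DNA of growth, invasion and stress genes. ATF3 is a stress-induced relative that joins the same dimers, EGR1 is a zinc finger factor induced by the serum response pathway, and MYC is a growth-promoting factor of the helix-loop-helix type.

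The cells were hTERT RPE-1, a telomerase-immortalised human retinal pigment epithelial line, of the genotype Plk1-/- EGFP-Plk1as. In them the mitotic kinase Plk1 is replaced by a tagged analog-sensitive form, so the kinase can be blocked with the bulky inhibitor 3MB-PP1. All 8 libraries came from cells held in prometaphase with 5 µM STLC, an inhibitor of the kinesin Eg5, for 16 h and isolated by shake-off. Still in STLC, 4 cultures then received 0.5% DMSO and 4 received 10 µM 3MB-PP1, for 2 h. The question put was whether blocking Plk1 alters which DNA is open on mitotic chromosomes; it was asked in 1 line, and neither group is an interphase one.

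The lists held 150577 to 199042 peaks with DMSO and 170682 to 252752 with 3MB-PP1, and the depth is unknown, since no totals of reads stand in them. Median peak length over a list was 355 to 409 bp with DMSO and 269 to 324 bp with 3MB-PP1, so shorter peaks are the background against which every gene below is read. The libraries numbered 1 and 3 had 0.868% to 0.933% of their peaks on chromosome X and those numbered 2 and 4 had 0.595% to 0.694%, in both treatments; differences within odd and within even numbers are therefore given beside tested differences. Of 6 pigment epithelial markers with an assigned start, 2 had a peak within 1 kb of it in all 8 lists (the regulators MITF and OTX2). A further 3 had one in some lists and 1 in none (RPE65, an enzyme of the visual cycle). Of all 15812 protein-coding genes with an assigned start, 60.0% had a peak there in all 8 lists, so these counts do not establish the labelled cell type. The epithelial keratin gene KRT8 had a start peak in all 8 lists, and the leukocyte gene PTPRC and the liver gene ALB in none.

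Promoter sequences are shown because the start peaks lie over them at all members printed but ATF3, whose upstream bases were mostly not under a peak. They are the 250 bases upstream of the annotated start, 5′ to 3′ on the gene's strand, from RefSeq (GRCh38.p14), for 6 of the 8 genes that the promoter table holds. Capitals mark cyclic AMP response element (CRE) motifs, written TGACNTCA or TGACGT, the CArG box bound by serum response factor, and the TATA box TATAAA, each searched on both strands.
FOS (chr14:75278578-75278827, forward strand): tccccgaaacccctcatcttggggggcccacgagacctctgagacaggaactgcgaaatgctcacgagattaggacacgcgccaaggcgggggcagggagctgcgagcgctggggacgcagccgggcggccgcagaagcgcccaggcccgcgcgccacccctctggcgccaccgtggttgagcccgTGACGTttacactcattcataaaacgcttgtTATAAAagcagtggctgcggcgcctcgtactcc
FOSB (chr19:45467746-45467995, forward strand): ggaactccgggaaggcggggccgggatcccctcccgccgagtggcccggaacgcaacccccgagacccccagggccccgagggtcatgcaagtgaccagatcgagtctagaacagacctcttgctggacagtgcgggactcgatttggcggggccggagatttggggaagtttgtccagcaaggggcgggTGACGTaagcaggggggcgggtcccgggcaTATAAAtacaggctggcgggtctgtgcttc
JUN (chr1:58784048-58784297, reverse strand): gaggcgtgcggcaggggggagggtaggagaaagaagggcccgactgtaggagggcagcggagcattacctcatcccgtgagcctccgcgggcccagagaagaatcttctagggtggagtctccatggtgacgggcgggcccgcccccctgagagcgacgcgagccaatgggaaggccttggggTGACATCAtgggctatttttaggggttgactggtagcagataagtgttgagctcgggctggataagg
JUND (chr19:18281623-18281872, reverse strand): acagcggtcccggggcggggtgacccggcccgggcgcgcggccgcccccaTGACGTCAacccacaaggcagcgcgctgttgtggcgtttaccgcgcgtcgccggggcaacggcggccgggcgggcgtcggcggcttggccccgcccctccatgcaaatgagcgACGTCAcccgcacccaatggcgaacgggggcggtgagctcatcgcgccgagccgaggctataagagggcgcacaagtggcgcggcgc
EGR1 (chr5:138465229-138465478, forward strand): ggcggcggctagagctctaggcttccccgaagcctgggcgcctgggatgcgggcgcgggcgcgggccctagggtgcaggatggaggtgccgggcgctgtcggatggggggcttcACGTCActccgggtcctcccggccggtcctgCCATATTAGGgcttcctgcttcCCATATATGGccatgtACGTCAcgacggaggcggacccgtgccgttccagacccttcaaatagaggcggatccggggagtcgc
ATF3 (chr1:212565157-212565406, forward strand): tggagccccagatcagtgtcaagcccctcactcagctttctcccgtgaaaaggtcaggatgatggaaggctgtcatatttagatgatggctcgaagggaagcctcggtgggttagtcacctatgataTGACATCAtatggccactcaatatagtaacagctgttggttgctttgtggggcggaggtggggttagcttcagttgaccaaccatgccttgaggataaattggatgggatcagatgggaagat

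The FOS and FOSB promoters had the same layout, with TGACGT from position -64 in FOS and -60 in FOSB and TATAAA from -33 and -30, counted back from the base before the start as -1. JUN carried TGACATCA from -67 and JUND the palindrome TGACGTCA from -200, within which the shorter TGACGT matches overlap. EGR1 held 2 CArG boxes, from -105 and -83, and the CArG box was present in 1 of the 8 members searched and in 1.15% of 27195 promoters of the same length. Either CRE form occurred in 7 of the 8, all but JUNB, and in 12.5% of those promoters. The 27195 promoters belong to genes of all kinds, 15812 of them protein-coding, and their median GC content was 58%. Among the 8 members searched, GC content was 49.2% (ATF3) to 74.8% (JUND), and the motif shares were not matched for it. TATAAA was found in FOS, FOSB and JUNB, and in 11.1% of promoters. The AP-1 motif TGANTCA was in none of the 8 windows and in 6.55% of promoters. These are matches of letters in a short window, not measured binding sites.

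**Figure D1:**
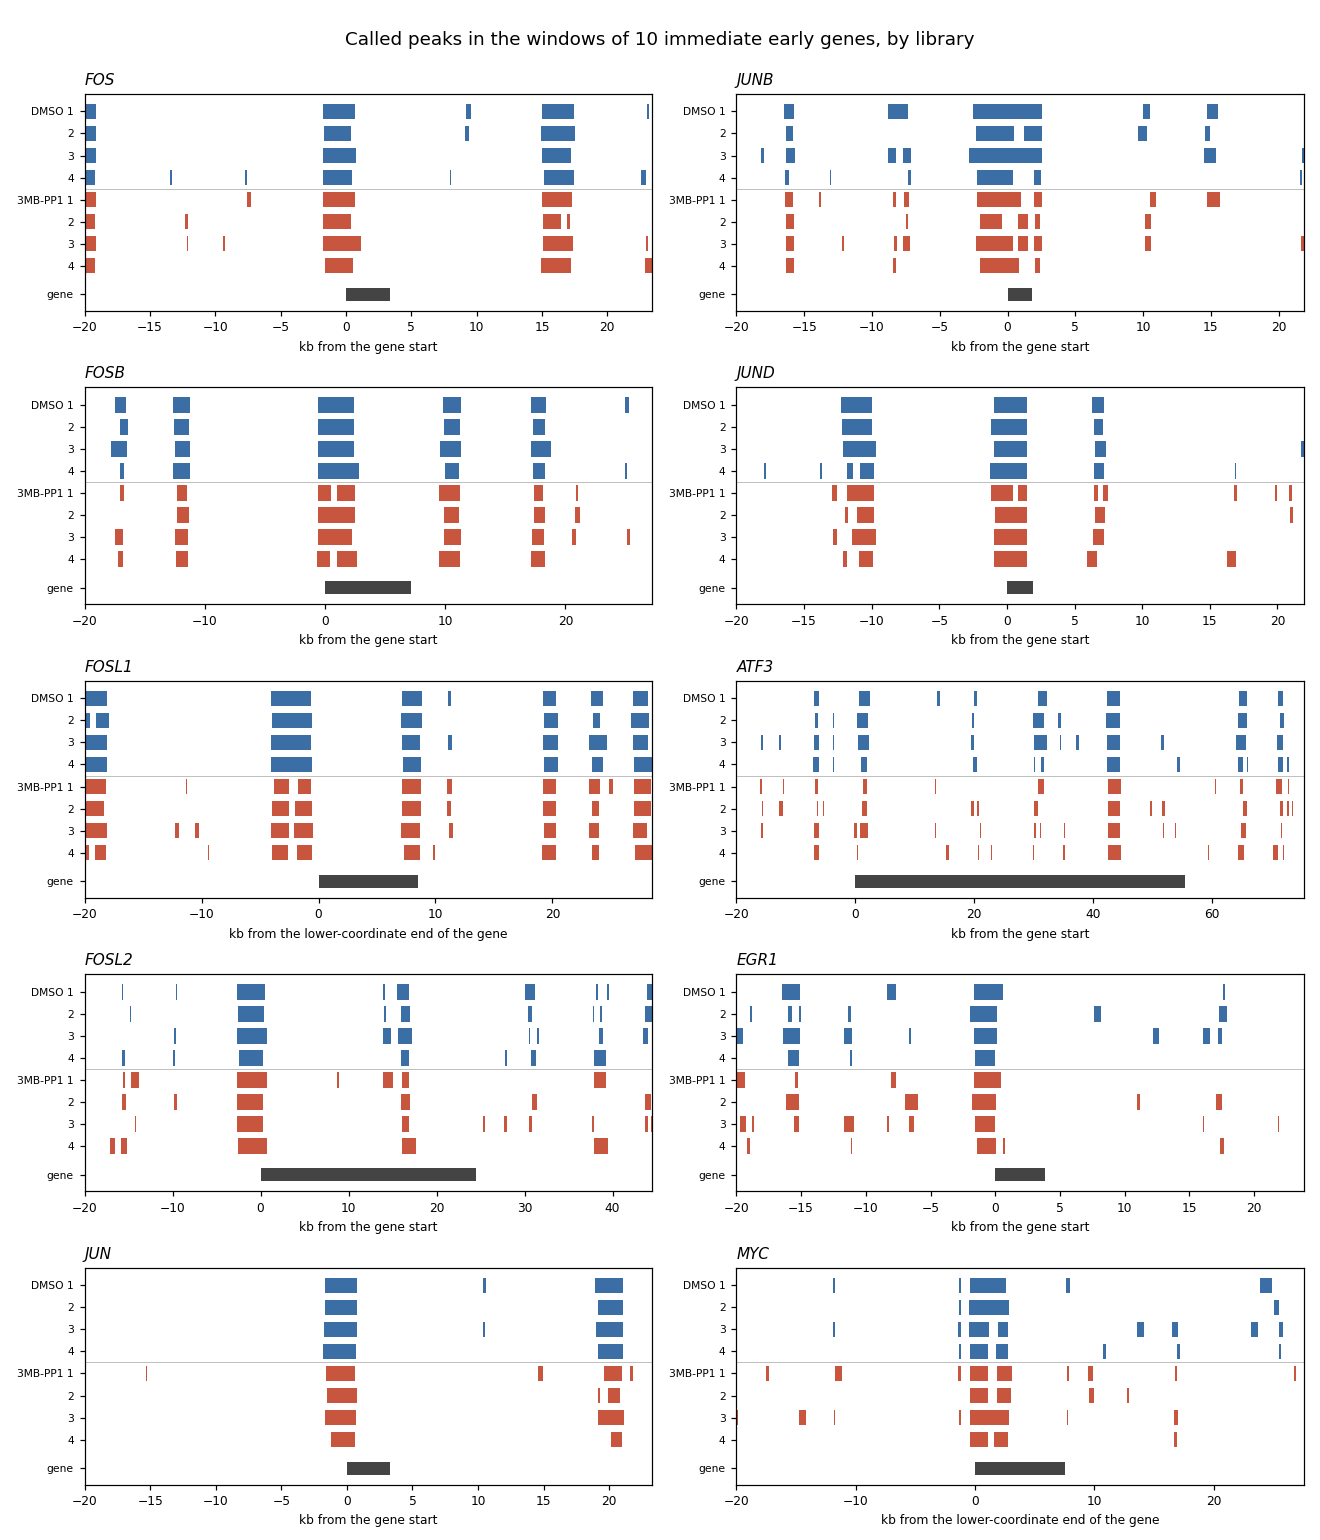
Each panel is 1 gene with 20 kb either side; the horizontal axis is the distance in kb from the gene start, or from the lower-coordinate end for FOSL1 and MYC, in the direction of transcription where a start was assigned. Rows are the 8 libraries, bars are called peaks, blue with DMSO and red with 3MB-PP1, and the dark bar is the gene. A block at the gene start, or across or beside the lower-coordinate end, recurs in every row outside the ATF3 panel. In the ATF3 panel, the region from 212565265 to 212567858, which holds the start, has a block in every row. In 3MB-PP1 replicates 1 and 2 that block lies more than 1 kb from the start. The strongest ATF3 region lies 43.4 kb inside the gene.

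Most of these genes had a strong peak at their start on mitotic chromosomes in both treatments. A peak lay within 1 kb of the start in all 8 lists for 7 of the 8 genes with an assigned start, FOS, FOSB, FOSL2, JUN, JUNB, JUND and EGR1. Among all 15812 protein-coding genes with an assigned start, 60.0% had a peak there in all 8 lists. For FOSL1 and MYC, which have no assigned start here, peaks within 1 kb of either end were read: FOSL1 had one at both ends in all 8 lists, and MYC had one at its lower-coordinate end in 8 lists and at the other end in 3. ATF3 had one in 4 DMSO lists and 2 3MB-PP1 lists. The order of strength was read from the pileup rank, the percentile of a peak's pileup within its own list. Fold enrichment, a ratio deposited for each peak, gave another order. By it JUNB was lowest of the 7 genes (2.05 to 2.63), with FOS at 2.92 to 3.58. Start peaks of the 7 genes called in 8 lists had ranks of 97.4 to 99.8, lowest at FOS (97.4 to 98.7) and highest at JUND (99.6 to 99.8). High ranks are common near genes. The highest rank anywhere in a gene's window had a median over all genes of 95.7 with DMSO and 95.9 with 3MB-PP1. Over the members it was 99.3 and 99.4. Averaged over the lists, the members' highest ranks stood at percentiles of 75.2 (ATF3) to 94.5 (JUND) among 18528 genes. At a stricter minimum -log10 q of 5, 8 lists still had a start peak at FOS, FOSB, FOSL2, JUN, JUND and EGR1, 6 lists at JUNB and 0 at ATF3.

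The upstream sequence lay under the same peaks at most members. In FOS, FOSB, FOSL2, JUN and JUND all 250 bases printed or searched lay under a peak in 8 of 8 lists. For EGR1 this held in 6 lists, with 244 and 219 bases covered in DMSO replicate 4 and 3MB-PP1 replicate 3. JUNB had full cover in 7 lists and none in 3MB-PP1 replicate 2. At ATF3 no base was covered in 7 lists, and 142 bases were in 3MB-PP1 replicate 3.

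The FOS family encodes the AP-1 subunits that cannot pair with themselves. FOS (gene ID 2353, chromosome 14, 75278828 to 75282230) had 1654, 1376, 1778 and 1436 bp under peaks within 1 kb of its start in DMSO replicates 1 to 4, and 1682, 1376, 2001 and 1531 bp with 3MB-PP1. The groups overlapped, and the difference of 86.5 bp was within the replicate spread (exact permutation p = 0.657, adjusted p = 1; 125.5 bp in odd and 47.5 bp in even numbers). Here and in what follows the exact permutation test is two-sided, runs over the 70 ways to assign 8 libraries to the groups, and is adjusted by Benjamini-Hochberg over every gene measured, 15812 for cover at the start. The start region, from 75277042 to 75279952, was 1 unbroken peak in each of the 8 lists. A pair of further regions of the FOS window was also called in 8 lists: one 19.7 kb upstream, outside any annotated gene, with pileup ranks of 98.8 to 99.6 that exceeded those of the start peak, and one 16.2 kb downstream over the long non-coding RNA gene LINC01220. The number of peaks in the FOS window was 3 to 7 with DMSO and 4 to 6 with 3MB-PP1, with a mean of 4.75 in both.

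FOSB, a close relative of FOS, lies on chromosome 19 (45467996 to 45475179). Its start window held 1602, 1593, 1628 and 1574 bp under peaks with DMSO and 1116, 1609, 1589 and 1093 bp with 3MB-PP1. In 3MB-PP1 replicates 1 and 4 the start region was called as 2 peaks with a gap, and in the other 6 lists as 1 peak; the difference of -247.5 bp had an exact permutation p of 0.229 (adjusted p = 0.669; odd -262.5, even -232.5 bp). The median length of all peaks in the FOSB window did separate the groups. It was 1342, 1243, 1697 and 1120.5 bp with DMSO and 814, 990, 1005 and 1115.5 bp with 3MB-PP1, a difference of -369.5 bp (exact permutation p = 0.0286, the smallest this design can give; adjusted p = 0.200 over 18528 genes; odd -610, even -129 bp). All 4 3MB-PP1 values lay below all 4 DMSO values, by 5 bp at the closest, as they did for 14.2% of all genes. Divided by each list's median peak length, the FOSB groups overlapped (exact permutation p = 0.857 before adjustment). The FOSB region that separated the groups was 11.9 kb upstream of the start, from 45455343 to 45456797 and outside any gene, with 1360.5 ± 105 bp covered with DMSO (SD, n = 4) and 967.75 ± 119 bp with 3MB-PP1 (SD, n = 4).

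FOSL1 encodes FRA1, an AP-1 subunit abundant in many adherent cell lines, and lies on chromosome 11 (65892049 to 65900545) among other genes. Its window held 7, 7, 7 and 6 peaks with DMSO and 10, 8, 10 and 10 with 3MB-PP1. Every 3MB-PP1 list held more than any DMSO list, a difference of 2.75 peaks (exact permutation p = 0.0286; adjusted p = 0.767 over 19974 genes; odd 3, even 2.5). Relative to the length of each list, the FOSL1 groups did overlap. One of the added peaks came from the region beside the lower-coordinate end of FOSL1, which does not reach the gene. From 65887984 to 65891582, over FIBP and CCDC85B, each DMSO list had 1 peak, of 3418, 3445, 3441 and 3458 bp, and each 3MB-PP1 list had 2 peaks, covering 2441, 2891, 3157 and 2660 bp. A change of this kind, more peaks in every 3MB-PP1 list than in any DMSO list, was found in 1 of 30 regions called in all 8 lists in these windows and in 0.62% of 36624 such regions overall; the reverse was found in 0 of 30 and in 0.0137%. The region over the higher-coordinate end of FOSL1 itself, from 65899139 to 65900859, was 1 peak in each list and covered 1638.5 ± 67.7 bp with DMSO (SD, n = 4) and 1582.25 ± 108 bp with 3MB-PP1 (SD, n = 4), overlapping.

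FOSL2, which encodes FRA2, lies on chromosome 2 (28392858 to 28417317) and had overlapping groups in each of the 4 measures tested. Under its start window 1532, 1344, 1716 and 1310 bp were covered with DMSO and 1691, 1293, 1298 and 1710 bp with 3MB-PP1 (difference 22.5 bp; exact permutation p = 1, adjusted p = 1; odd -129.5, even 174.5 bp). The start region also reaches over the antisense gene FOSL2-AS1. It was the only gene of the 10 with fewer peaks on average with 3MB-PP1, 7 ± 2.16 against 8 ± 0.816 (SD, n = 4 each; exact permutation p = 0.543, adjusted p = 1; odd 0, even -2).

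**Figure D2:**
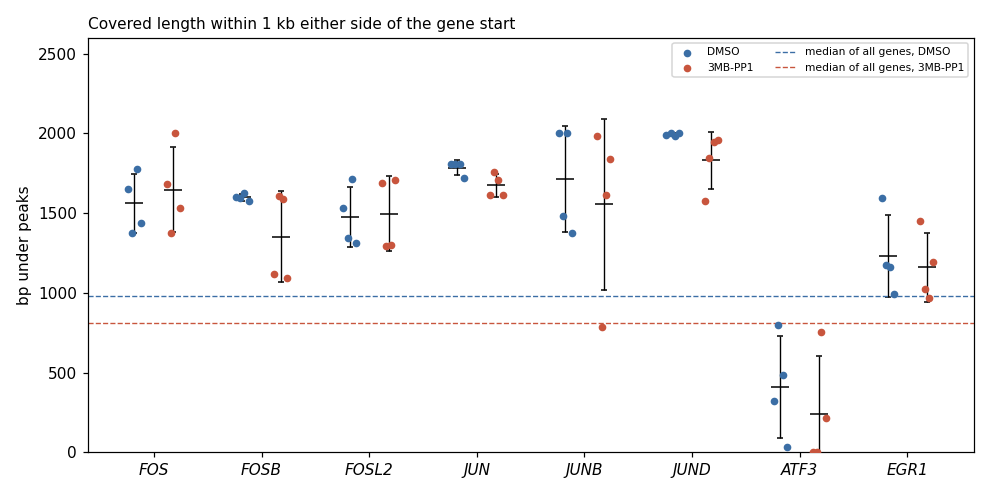
Points are the 8 libraries at each of 8 genes with an assigned start, blue with DMSO and red with 3MB-PP1; the vertical axis is bp under peaks within 1 kb either side of the start, black bars are mean and SD, and dashed lines are medians over all genes tested. JUND has 1982 to 2001 bp with DMSO and 1576 to 1956 bp with 3MB-PP1, and ATF3 lies lowest with 0 to 799 bp.

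The JUN family encodes the AP-1 subunits that pair with each other and with FOS proteins. JUN (chromosome 1, 58780791 to 58784047, reverse strand) had 1806, 1811, 1811 and 1718 bp covered at its start with DMSO and 1616, 1758, 1707 and 1616 bp with 3MB-PP1. Coverage was lower with 3MB-PP1 in 4 of 4 same-numbered pairs, but DMSO replicate 4 fell within the 3MB-PP1 range, and the difference of -112.25 bp missed an unadjusted 0.05 too (exact permutation p = 0.0571, adjusted p = 0.422; odd -147, even -77.5 bp). Over the whole start region, from 58783237 to 58785840 and reaching into the divergent transcript JUN-DT, the covered length was 2470, 2464, 2526 and 2511 bp with DMSO and 2244, 2298, 2397 and 1849 bp with 3MB-PP1. Here no 3MB-PP1 value reached the DMSO range. The only other JUN region called in all 8 lists, 20.0 kb downstream over the long non-coding RNA gene LOC105378751, covered 1891 to 2139 bp with DMSO and 857 to 2005 bp with 3MB-PP1, with ranks of 51.1 to 87.4.

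JUNB, on chromosome 19 (12791486 to 12793315), had the largest SD of cover at the start within a treatment, 534 bp with 3MB-PP1. Its start window held 2001, 1482, 2001 and 1377 bp with DMSO and 1981, 787, 1611 and 1841 bp with 3MB-PP1 (difference -160.25 bp; exact permutation p = 0.657, adjusted p = 1; odd -205, even -115.5 bp). The lowest value was that of 3MB-PP1 replicate 2, the library with no peak over the 250 bases upstream. The start region, from 12788625 to 12794055, was the longest region called in 8 lists in these windows and also overlaps HOOK2. It was a single peak of 5121 and 5431 bp in DMSO replicates 1 and 3 and 2 or 3 separate peaks in the other 6 lists.

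JUND, which is expressed more constantly than its relatives, lies on chromosome 19 (18279694 to 18281622, reverse strand) and had the most complete cover. The 2001 bp around its start were covered to 1993, 2001, 1982 and 2001 bp with DMSO and to 1576, 1848, 1948 and 1956 bp with 3MB-PP1. The groups were separate (difference -162.25 bp; exact permutation p = 0.0286, adjusted p = 0.344; odd -225.5, even -99 bp), and all DMSO lists were at or near the ceiling of the measure. Without 3MB-PP1 replicate 1, the lowest library, the JUND difference was -76.9 bp. Expressed per 100 Mb of covered length in each list, the sign turned to 71.5 bp (exact permutation p = 0.743). Within 250 bp of the start, every list had the whole stretch under a peak, so that narrower measure could not separate the groups. JUND was the 1 of 8 members with non-overlapping, lower cover at the start, where 7.91% of all 15812 genes were lower in this way and 0.398% higher.

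The strongest ATF3 peak lay inside the gene, far from the annotated start. The RefSeq gene spans 212565407 to 212620777 on chromosome 1, and ATF3 is known to be transcribed from more than one promoter. Around the outermost start, 324, 799, 487 and 36 bp were covered with DMSO and 0, 0, 758 and 217 bp with 3MB-PP1, with ranks of 30.2 to 85.6 where a peak was called (exact permutation p = 0.429, adjusted p = 0.824; odd -26.5, even -309 bp). The merged region holding this start, from 212565265 to 212567858, was called in all 8 lists. It covered 1626.75 ± 368 bp with DMSO and 925.25 ± 745 bp with 3MB-PP1 (SD, n = 4 each), and the groups overlapped. The strongest region was 43.4 kb from the outermost start, from 212607642 to 212610032, with ranks of 97.7 to 98.8 in 8 of 8 lists. It covered 2260, 2261, 2262 and 2109 bp with DMSO and 2062, 1985, 2104 and 2076 bp with 3MB-PP1, every 3MB-PP1 value being below every DMSO value. Per 100 Mb of covered length in each list, the ATF3 difference turned to 97.7 bp and the groups overlapped.

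The median peak length in the ATF3 window also separated the treatments. It was 1085.5, 711, 511 and 581.5 bp with DMSO and 478, 495, 231 and 328 bp with 3MB-PP1, a difference of -339.25 bp (exact permutation p = 0.0286, adjusted p = 0.200; odd -443.75, even -234.75 bp). Without DMSO replicate 1 it was -218 bp, and divided by each list's median peak length the ATF3 groups overlapped (exact permutation p = 0.200 before adjustment). Peaks covered 8622 to 12358 bp of the window with DMSO and 6694 to 7977 bp with 3MB-PP1. That separation of covered length, a measure added after the others, was seen for ATF3 alone among the members and, in the same direction, for 6.35% of 19974 genes, with 0.991% in the other. It was -3896 bp in odd and -1743.5 bp in even numbers. A weaker region 65.0 kb from the outermost start, over LINC02773, covered 1453.75 ± 296 bp with DMSO and 718.75 ± 177 bp with 3MB-PP1 (SD, n = 4 each) without overlap. A region 20.0 kb inside the gene was called in 4 DMSO lists and only in replicate 2 of the 3MB-PP1 lists. It was weak, with ranks of 2.08 to 53.3 where called. The adjacent region, from 212585943 to 212586211, was called in 3MB-PP1 replicates 2 and 4 and in no DMSO list.

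EGR1 (chromosome 5, 138465479 to 138469303) had 1 region called in all 8 lists, the one over its start, from 138463503 to 138466241. Within 1 kb of the start 1596, 1176, 1162 and 994 bp were covered with DMSO and 1452, 1027, 969 and 1195 bp with 3MB-PP1 (difference -71.25 bp; exact permutation p = 0.686, adjusted p = 1; odd -168.5, even 26 bp). The values overlapped throughout. Its ranks were 99.2 to 99.6.

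MYC (chromosome 8, 127735434 to 127742951) likewise had 1 region called in 8 lists, from 127734933 to 127738523 across its lower-coordinate end. It covered 3100, 3325, 2438 and 2424 bp with DMSO and 2798, 2697, 3317 and 2690 bp with 3MB-PP1, with ranks of 99.0 to 99.7 and overlapping groups. A short region just before it, from 127734010 to 127734290, had 204 to 246 bp covered in the 4 DMSO lists, 220 and 240 bp in 3MB-PP1 replicates 1 and 3, and no call in 3MB-PP1 replicates 2 and 4. The number of peaks in the MYC window was 5, 3, 8 and 6 with DMSO and 9, 4, 7 and 3 with 3MB-PP1 (exact permutation p = 1, adjusted p = 1; odd 1.5, even -1).

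**Figure D3:**
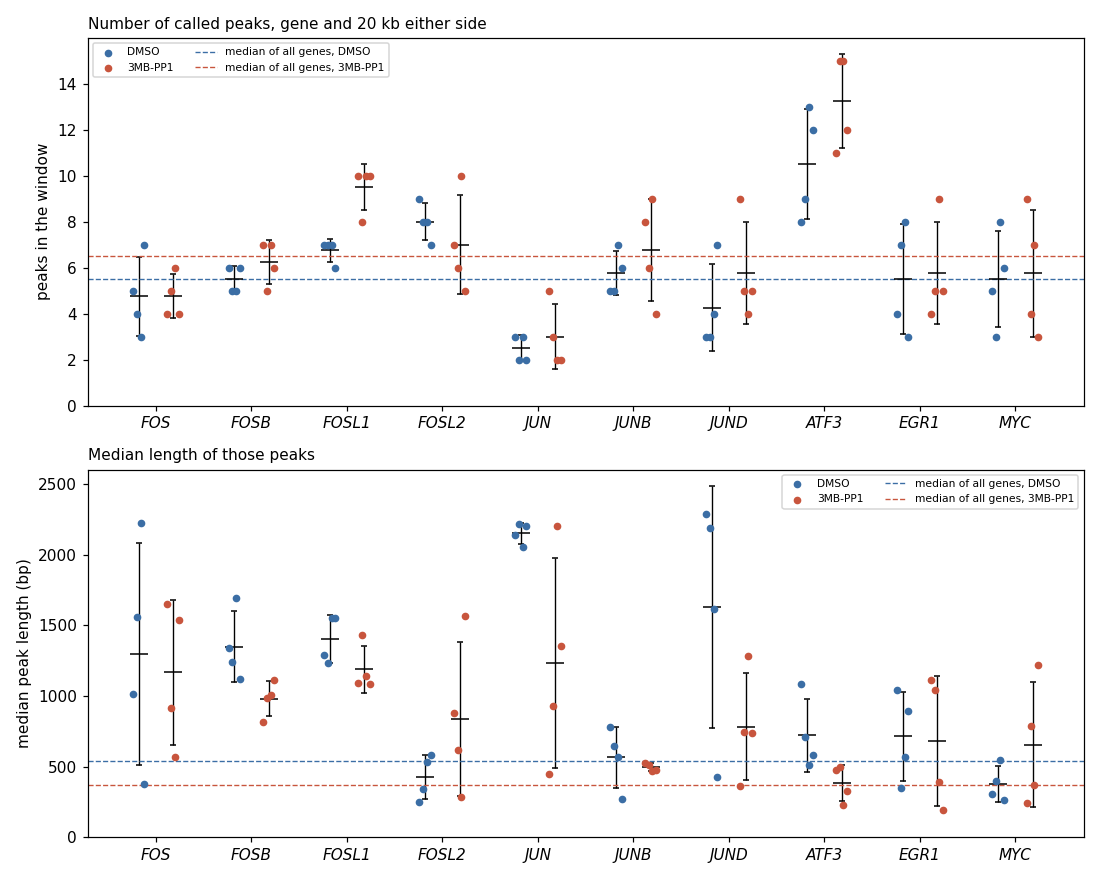
For each of the 10 genes the upper plot gives the number of peaks in the gene and 20 kb either side and the lower plot their median length in bp; points are libraries, blue with DMSO and red with 3MB-PP1, black bars are mean and SD, and dashed lines are medians over all genes tested. FOSL1 is the gene whose peak numbers do not overlap, at 6 to 7 and 8 to 10; FOSB and ATF3 are the genes whose lengths do not overlap.

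Read as a group, the 10 windows followed the drift of the lists. Together they held 59 ± 6.06 peaks with DMSO and 67.75 ± 10.6 with 3MB-PP1 (SD, n = 4 each), a difference of 8.75 that was 16 in odd and 1.5 in even numbers. The bp under those peaks were 66954 ± 7635 with DMSO and 58206.5 ± 4683 with 3MB-PP1 (SD, n = 4 each), with differences of -10990.5 in odd and -6505 in even numbers. Peak number separated the groups for 1 of 10 members, higher with 3MB-PP1, where 3.05% of 19974 genes were higher and 0.15% lower in this way. Median length did so for 2 of 10, both lower, against 14.2% of 18528 genes lower and 0.0756% higher. The highest pileup rank in the window separated the groups for 0 of 10, where 5.33% of genes were higher and 1.3% lower.

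No member passed an adjusted p of 0.05 in any of these 4 measures by the exact permutation test, and neither did any other gene. At an unadjusted p under 0.05 there was 1 member for peak number (FOSL1), 2 for median length (FOSB and ATF3), 0 for pileup rank and 1 for cover at the start (JUND). With 4 libraries against 4 the smallest p is 0.0286, so the adjusted values are set by how many of all genes reach it.

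In level, the median over the members was above that over all genes for peak length and for cover at the start, though ATF3 had less cover at the start than the median gene (411.5 and 243.75 bp on average). The median member had 5.5 peaks per window with DMSO, as did the median of all genes. Its median peak length was 1009 bp with DMSO and 811 bp with 3MB-PP1, where the medians over all genes were 542 and 369 bp. Its cover at the start was 1580 and 1526.5 bp in the same order, where all genes gave 981 and 811 bp. The members' median difference was -172 bp in length and -136 bp at the start, beside -154 and -61.5 bp over all genes tested. JUN ranked highest of the 10 by peak length and lowest by peak number, with 2 to 5 peaks per list.

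**Figure D4:**
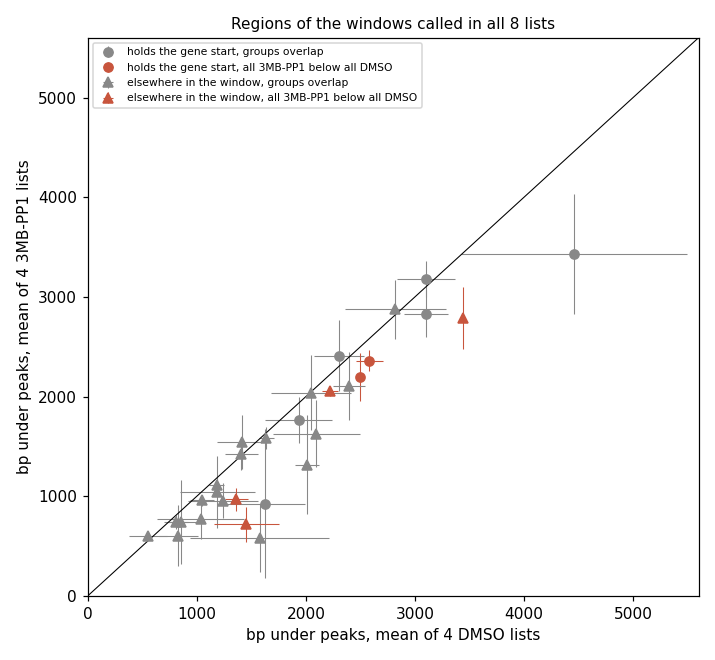
Each point is 1 of the 30 regions of the windows called in all 8 lists, with bp under peaks averaged over 4 DMSO lists on the horizontal axis and over 4 3MB-PP1 lists on the vertical axis, error bars being SD; the line marks equality. Of the 30 points, 24 lie below the line, near the share over the genome, where 80.7% of 36624 such regions had a lower mean with 3MB-PP1. The 6 in red are those whose 3MB-PP1 values all lie below all DMSO values.

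Merging the lists gave 129 regions in the 10 windows, of which 30 were called in all 8 lists and 50 in a single list. As shares these were 23.3% and 38.8%, where 6.23% and 51.9% of 588244 regions over the genome were of these kinds. The genome-wide shares are not limited to regions near genes, and windows of other genes were not counted in this way. Whether the difference is particular to these members was therefore not tested. No region of the windows was called in 4 of 4 lists of one treatment and 0 of 4 of the other, a pattern seen in 0.12% of all regions for DMSO and 0.148% for 3MB-PP1. Of the 30 constant regions, 6 were shorter with 3MB-PP1 without overlap and 0 longer, where 10.9% of 36624 constant regions were shorter in this way and 0.377% longer. The 6 lay in the windows of FOSB (1), FOSL1 (1), JUN (1), JUND (1) and ATF3 (2), and 2 of them, at JUN and JUND, held the assigned start of that member. FOSL1 has no assigned start, and the starts of neighbouring genes were not looked up. In percent of the DMSO mean the 6 regions differed by -28.9 (FOSB, 11.9 kb upstream), -19.0 (FOSL1), -11.9 (JUN), -8.54 (JUND), -7.48 (ATF3, strongest region) and -50.6 (ATF3, over LINC02773). Relative to the total covered length of each list, 0 of the 30 regions were shorter and 0 longer without overlap, where 3.93% of all constant regions were shorter and 0.988% longer in this way, and the sign turned for JUND and for the strongest ATF3 region. Without DMSO replicate 4 the count of 6 was 10. Groups separate more easily with a library left out, and the share over all constant regions was not taken in that setting. A further 2 of 129 regions were called in the 4 odd-numbered lists alone, as were 0.191% of all regions.

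Other genes of the pathway, from lists chosen with earlier results of these data known, were measured in the same way. Among 30 other immediate early genes, 20 had an assigned start, and 17 of these had a start peak in all 8 lists. Cover at the start was lower without overlap for 1 of the 20, beside 7.91% of all 15812 genes. This was DUSP1, a phosphatase that inactivates MAP kinases, with 1540 to 2001 bp with DMSO and 1423 to 1435 bp with 3MB-PP1 (exact permutation p = 0.0286, adjusted p = 0.344; odd -127.5, even -342.5 bp). Their median peak length was lower without overlap in 5 of 30, near the 14.2% of all genes, and peak number higher in 2 of 30, beside 3.05%. In the 4 lists that follow, in their order, median length was lower in 1 of 14, 1 of 12, 3 of 13 and 0 of 8, and peak number higher in 2 of 14, 0 of 12, 0 of 14 and 0 of 8. Of 14 upstream kinases and serum response factors, the 13 with an assigned start had a start peak in all 8 lists. CREB1, which binds the CRE, covered 1914 to 1960 bp with DMSO and 1794 to 1857 bp with 3MB-PP1 (exact permutation p = 0.0286, adjusted p = 0.344; odd -98, even -107 bp). It was the 1 of 13 without overlap, beside the same 7.91% of all genes.

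Among 12 further leucine zipper genes that pair with AP-1 proteins, 8 had an assigned start and 0 separated the groups there; 6 had a start peak in all 8 lists. Of 14 AP-1 target genes, 8 had an assigned start, 5 of them with a start peak in all 8 lists, and MMP10, a matrix metalloproteinase gene, had one in none (named after its values were seen). In the MYC network, MYCL was the 1 of 8 with lower cover without overlap, beside 7.91% of all genes. It had 1055 to 1748 bp with DMSO and 432 to 868 bp with 3MB-PP1 (exact permutation p = 0.0286, adjusted p = 0.344; odd -788.5, even -717 bp). MYCN had no start peak in any list (also named after its values were seen). Of 6 pigment epithelial markers tested, 1 separated the groups, where 7.91% of all genes were lower in this way: cover at the OTX2 start was 947 to 2001 bp with DMSO and 458 to 522 bp with 3MB-PP1 (exact permutation p = 0.0286, adjusted p = 0.344; odd -1159, even -514 bp). No gene of these lists passed adjustment in any of the 4 measures.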

How the data were processed

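The data were 8 deposited ATAC-seq peak lists, 4 with DMSO and 4 with 3MB-PP1, described in the design text as biological replicates; groups and replicate numbers came from the library titles. MACS2 and build hg38 are named in the submitters' processing notes; DESeq2 is named there too and was not used here. The aligner, read filters, any Tn5 shift and the calling settings are not given in the sources used here, and each of these could change the number and length of peaks. From the values, each deposited list gives a length, a pileup (signal, or coverage), a -log10 p, a fold enrichment (ratio) and a -log10 q per peak. These deposited values are the authors' own and served only to rank or filter peaks within a list, apart from the fold enrichment printed for start peaks.

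Gene spans came from RefSeq GRCh38.p14 and starts from its promoter table, which holds 8 of the 10 members and 15812 protein-coding genes. Per gene and library 4 measures were taken: number, median length and highest pileup percentile of peaks overlapping the gene and 20 kb either side by at least 1 bp, and bp under peaks within 1 kb of the start. Genes with no peak in some list were left out of the tests of length and rank. The test of each difference was an exact permutation (two-sided, 70 assignments), adjusted by Benjamini-Hochberg over all genes. Regions are the union of the 8 lists merged where they overlap.

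The members and lists were chosen with earlier results of these data known. All members are described; from each other list up to 2 genes are named, those separating the groups in cover at the start. Outside that rule stand the markers named for the check of cell type, and MMP10 and MYCN, named after their values were seen. Covered length per window, the length and the number of peaks of regions in all 8 lists were added after the data were seen. Python 3.11.15, numpy 2.4.6, pandas 2.3.3 and matplotlib 3.10.9 were used, and the functions were tested on simulated data and against bedtools.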

Additional observations from a re-analysis of the deposited data

Results flagged for a closer look

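Among 4 libraries of a group, a highest or lowest value far from the rest by Dixon's ratio was found in 5 of 76 groups, where chance gives about 1 in 20. The FOSL1 window held 6 peaks in DMSO replicate 4 and 7 in each remaining DMSO list, and 8 in 3MB-PP1 replicate 2 against 10 in each remaining 3MB-PP1 list. With whole numbers this small, a single differing list always stands apart. The median peak length there was 1435 bp in 3MB-PP1 replicate 2, and the rest of its group had 1083.5 to 1141 bp. For ATF3, DMSO replicate 1 had the lowest top pileup rank, 97.7, beside 98.6 to 98.7 in its group. DMSO replicate 4 covered 1718 bp at the JUN start, beside 1806 to 1811 bp in its group, and without that library the JUN groups do not overlap.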

How the results depend on the processing

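The labels give no read depth, so precision rests on 4 libraries a group. Where a value below changed, the cause was not tested. Groups separate more easily with a library left out, and shares over all genes or regions were not taken in that setting.

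Members separating the groups. For peak number (1 higher), 0 did so at a -log10 q of at least 5 and 0 relative to the list. For length (2 lower), 1 did so at that q and 0 relative to the list, and leaving out a library gave 2 to 4 lower and 0 to 1 higher. For pileup rank, leaving out a library gave 0 to 1 higher. For cover at the start (1 lower), 2 did so at that q, 0 within 250 bp and 0 relative to the list, with 1 to 2 when a library was left out. Within 250 bp the JUND start was fully covered in every list, so JUND could not separate there. The difference in peaks over the 10 windows was -1 at that q. Regions in all lists numbered 17 with 50% of the region covered and 14 at that q. Regions in every DMSO list and no 3MB-PP1 list numbered 1 with 50% covered, 1 when merged within 500 bp, and 0 to 2 with a library left out, and the reverse kind 0 to 1. Shorter regions (6) were 0 relative to the list, an alternative chosen after seeing the data, and 6 to 10 with a library left out.

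Signs that turned, as 3MB-PP1 minus DMSO. Peak number: at that q -0.5 (FOSB) and -0.25 (JUN); with lists of equal length -0.25 (JUNB, MYC); with a common smallest length -0.25 (EGR1) and -0.75 (MYC); within 5 kb 0.25 (FOSL2); per 100000 peaks -0.17 (FOSB), -7.45e-05 (JUN), -0.11 (JUNB), -0.45 (EGR1) and -0.39 (MYC); in even numbers -0.5 (JUNB) and -1 (MYC). Leaving out a library gave -0.833 to 1.08 (EGR1), -0.833 to 1.17 (MYC) and -0.167 to 0.833 (JUN). Length in bp: at that q -425.75 (MYC), with lists of equal length 163.25 (EGR1) and -99.6 (MYC), with a common smallest length 71.1 (FOS), within 5 kb 363.25 (FOS) and -83.1 (MYC), in odd numbers -120 (MYC), in even numbers 257.5 (FOS) and 39.5 (JUNB). As a multiple of the list median, it was 0.76 (FOS), 0.475 (FOSL1), 0.291 (JUNB) and 0.571 (EGR1). Leaving out a library gave -431 to 184 bp (FOS), -168 to 2.13 bp (JUNB) and -174 to 133 bp (EGR1). Cover at the start in bp: within 250 bp 86 (ATF3), in odd numbers -129.5 (FOSL2), in even numbers 26 (EGR1), and per 100 Mb covered 101 (JUN), 59.1 (JUNB), 71.5 (JUND) and 80.02 (EGR1). Leaving out a library gave -31.3 to 177 (FOS), -48.2 to 103 (FOSL2), -302 to 95.75 (JUNB) and -168 to 50.1 (EGR1).

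The labels number the replicates 1 to 4 in both treatments. Same-numbered deviations correlated at 0.3206, 0.2221, 0.3571 and -0.0776 for peak number and at 0.161, 0.0525, 0.0729 and 0.1598 for cover at the start. Most of these were above 0, though not every library correlated best with its own number. The labels do not say what a shared number means. The main test treated the libraries as unpaired and so does not account for structure tied to the number. With the replicate block, 0 members had an adjusted p of 0.05 or less, as without it; 16 sign assignments cannot give an exact p under 0.125.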

Other observations

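Some member regions followed the odd or even number of the library and not the treatment. In the MYC window, a region from 127714849 to 127715527 and one from 127723511 to 127724271, both over the long non-coding RNA gene CASC11, were called in the 4 odd-numbered lists and in none of the 4 even-numbered ones. Such calls made up 2 of 129 regions in the windows and 0.191% of 588244 regions over the genome. Both were weak, with pileup ranks of 5.34 to 51.8 at the most variable. The bp under peaks in the MYC window were 4709 to 4810 in the odd-numbered libraries and 2983 to 3948 in the even-numbered ones. In the JUNB window they were 6097 to 8647 and 3804 to 5668, again without overlap. These were 2 of 10 members, and 9.8% of 19974 genes had more bp covered in every odd-numbered library than in any even-numbered one. Cover at the start was separate in this way for FOS, 1654 to 2001 bp in odd and 1376 to 1531 bp in even numbers, 1 of 8 members beside 3% of genes. The highest pileup rank was so for FOSL1, 1 of 10 members beside 10.2% of genes, and peak number and median length for 0 of 10. The split was seen in the data, the labels do not describe it, and its source was not tested.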
